A study of Mus musculus with 2 samples.

Results

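The genes described here are 5 glandular kallikreins, Klk1, Klk1b9, Klk1b11, Klk1b16 and Klk1b26, together with the testis fatty acid binding protein gene Fabp9. They are 6 of the 31053 genes counted in sorted mouse medullary thymic epithelial cells (mTECs), and they were taken by gene symbol from both count matrices. The 6 had been picked because earlier results on these same cells placed them among the largest ratios between the 2 libraries and among the leading genes of cell clusters. Among 18401 genes with at least 50 UMIs (unique molecular identifiers, each standing for 1 captured transcript), Klk1b26 had rank 3 by that ratio on the log2 scale with 1 CPM added (CPM, counts scaled to a total of 1000000 UMIs), Fabp9 rank 4, Klk1b11 rank 6, Klk1b16 rank 8, Klk1b9 rank 31 and Klk1 rank 73. Their library ratios and their levels between clusters are therefore descriptions, with no test.

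The study asked how Ikaros, a zinc finger transcription factor encoded by Ikzf1, acts in mTECs that express Aire and in their specialised descendants. One library came from Foxn1-Cre(+) Ikarosfl/fl mice, with both Ikaros alleles floxed, and the other from Foxn1-Cre(+) Ikaros+/fl mice, with 1 floxed allele. Both carried Foxn1-Cre, a recombinase driven by a promoter active throughout thymic epithelium, so neither library is free of Cre or of a floxed allele. EPCAM+Ly51- thymus cells were sorted fresh and captured as single cells with a 10x Genomics 3′ kit. Each genotype had 1 library, and the number, age and sex of the mice are not given in the labels. There is therefore no replicate error, no test and no p-value. The 95% intervals (exact Poisson for levels, Clopper-Pearson for shares) cover counting error only, and they are too narrow where a few cells hold most of a gene's UMIs.

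The labels and the names of the deposited files assign the genotypes the opposite way round. The labels are followed, every direction given here rests on them, and each library is called by its label. Ikzf1, the targeted gene, had 37.7 CPM (36.4 to 39.0) labelled fl/fl and 64.4 CPM (62.5 to 66.4) labelled +/fl. Outside the myeloid, lymphoid and stromal clusters these levels were 36.6 and 63.3 CPM. The sources used here do not name the deleted exons, and 3′ tags outside them would count in a deleted allele too, so this check is weak. The libraries also parted in sex-linked transcripts. Xist had 0.913 CPM labelled fl/fl and 1318 CPM labelled +/fl, while Y-linked Ddx3y had 64.4 and 0 CPM. Genotype and sex cannot be told apart.

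The 2 libraries held 11095 barcodes with 99871505 UMIs (labelled fl/fl) and 7304 barcodes with 85260592 UMIs (labelled +/fl). After filtering and removal of likely doublets, 7669 and 4891 cells were kept, with medians of 8193 and 10728 UMIs per cell. Epcam, the epithelial surface marker used in the sort, was found in 88.1% and 89.4% of kept cells, and 405 and 488 cells fell in non-epithelial clusters. Only 10 kept barcodes were shared between the libraries.

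Tissue kallikreins are secreted serine proteases. Klk1 is the kininogenase that releases kinin peptides from kininogen, and in mice it stands at the end of a cluster of closely related Klk1b genes that arose by duplication and are best known from the submandibular gland. Many of these genes are under androgen control there and are higher in male than in female mice. In the thymus, Aire lets mTECs transcribe genes that are otherwise restricted to peripheral tissues, and mTECs past that stage can take on the programs of peripheral cell types, then called mimetic cells. Medullary display of such genes serves to remove or divert T cells that would attack the tissue.

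All 5 kallikreins lie on the forward strand of chromosome 7, inside a run of 14 glandular kallikrein genes that spans chr7:43950664-44229618 (GRCm38, GENCODE M21), or 279 kb. Klk1b9 (chr7:43976061-43980376), Klk1b11 (chr7:43995877-43999875) and Klk1b26 (chr7:44012168-44016968) follow each other closely, with gaps of 15.5 and 12.3 kb. Klk1b16 (chr7:44136767-44141610) lies 120 kb beyond Klk1b26, and Klk1 (chr7:44225360-44229618) 83.8 kb beyond Klk1b16. Fabp9 lies elsewhere, on the reverse strand at chr3:10193621-10197283.

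The 100 bases before each RefSeq start (GRCm38.p6, forward strand) are shown because the 3 kallikreins with the largest library ratios, Klk1b11, Klk1b16 and Klk1b26, carry the same A/T-rich word there. Capitals mark TATTTAAAA, or TTTAAA where the longer word is absent. The windows are chr7:44225260-44225359 for Klk1, chr7:43975961-43976060 for Klk1b9, chr7:43995777-43995876 for Klk1b11, chr7:44137190-44137289 for Klk1b16 and chr7:44012578-44012677 for Klk1b26.
Klk1: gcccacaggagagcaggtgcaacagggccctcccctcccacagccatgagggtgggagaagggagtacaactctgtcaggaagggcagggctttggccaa
Klk1b9: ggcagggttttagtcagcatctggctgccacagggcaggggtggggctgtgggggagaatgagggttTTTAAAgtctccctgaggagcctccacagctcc
Klk1b11: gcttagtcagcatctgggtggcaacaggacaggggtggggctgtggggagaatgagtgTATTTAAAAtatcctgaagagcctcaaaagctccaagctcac
Klk1b16: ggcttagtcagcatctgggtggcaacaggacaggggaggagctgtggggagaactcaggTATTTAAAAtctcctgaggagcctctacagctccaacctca
Klk1b26: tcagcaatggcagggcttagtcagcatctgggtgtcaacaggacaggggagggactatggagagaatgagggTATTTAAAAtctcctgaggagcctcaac

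TATTTAAAA was searched on both strands of 300-base promoters (250 bases before to 50 after the start) and occurred in 192 of 27025 of them (0.710%). Only the first-listed promoter of each gene symbol was counted, and a chromosome that holds none of the members was left out. The word occurred in 3 of the 14 glandular kallikrein promoters, those of Klk1b11, Klk1b16 and Klk1b26. Klk1b27, outside the 5, lacks it, though with nothing added its library ratio of 27.1 (17.8 to 43.5) lay above the 21.4 of Klk1b16. The shorter TTTAAA, which lies inside the longer word, occurred in 3557 promoters (13.2%) and in 13 of the 14, all but Klk1, while TATAAA occurred in 3827 (14.2%) and in 0 of the 14. The words were chosen after the levels had been seen, and a match is a description of letters, not of a working site. The RefSeq starts of Klk1b16 and Klk1b26 lie 523 and 510 bases downstream of the GENCODE gene starts, so their windows fall inside the longer gene models. The Klk1 promoter aligned with those of the other 4 over 209 to 223 bases, where pairs among the other 4 aligned over 286 to 299. Its 300 bases thus cover a partly different stretch, and whether TTTAAA lies outside them was not searched. Over the aligned promoter the closest pair was Klk1b11 and Klk1b26 at 91.6% identity, and the least alike was Klk1b16 and Klk1 at 79.5%.

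How far the copies can be told apart bears on every count. The last 500 bases of each transcript, where 3′ tags fall, were cut into 411 overlapping windows of 90 bases and set against the other 13 glandular kallikrein transcripts. Klk1 had 56 windows (13.6%) that occur without any mismatch in another copy, namely Klk1b5, and the other 4 kallikreins had 0. Windows within 3 mismatches of a copy made up 39.2% for Klk1, 30.7% for Klk1b9, 17.8% for Klk1b26, 17.5% for Klk1b11 and 5.84% for Klk1b16. The closest call between members was Klk1b26 and Klk1b16, whose transcripts are 91.9% identical and differ by 1 base in their most alike window. Fabp9 had no window within 3 mismatches of Fabp4, Fabp5, Fabp12 or Pmp2, and its most alike window, with Fabp4, differed at 22 bases.

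Single cells rich in a kallikrein give a partial reading of how far the counts of the members separate. The richest Klk1b16 cell of the library labelled fl/fl, in a secretory-like cluster, held 426 Klk1b16 UMIs and 0 of its closest copy Klk1b26. A neuroendocrine-like cell of the same library held 543 Klk1 UMIs, 4 of Klk1b16 and 0 of the other 3. A cell labelled +/fl held 205 Klk1 UMIs and 0 of the other 4. In these cells a very abundant kallikrein left at most a trace in the counts of the other members. They were picked from the richest cells, and other rich cells held mixtures, as described below. Klk1b5, Klk1b1 and Klk1b27, the closest copies of Klk1, Klk1b9 and Klk1b11, were not looked at in these cells. Separation from those copies was therefore not tested, and neither was the loss of reads that match several copies. Overlapping genes are a separate limit. Klk1 overlaps Gm10109 and Klk1b9 overlaps Gm44756 on the opposite strand, and Fabp9 overlaps Gm37389 on its own strand. Whether counting used strand is not given in the sources used here.

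Over all kept cells every one of the 6 genes was higher labelled fl/fl. Klk1, the kininogenase, had 139 CPM (136 to 141) labelled fl/fl and 17.6 CPM (16.6 to 18.6) labelled +/fl, a ratio of 7.90. Klk1b9, known as an epidermal growth factor binding kallikrein, had 61.1 CPM (59.4 to 62.8) and 5.29 CPM (4.75 to 5.87), a ratio of 11.5. Klk1b11 had 49.8 CPM (48.3 to 51.3) and 1.22 CPM (0.967 to 1.51), a ratio of 40.9. A single cell labelled +/fl held 172 of the library's 352 Klk1b9 UMIs, and without the richest cell of each library the Klk1b9 ratio was 21.9.

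Klk1b16, also called gamma-renin, had 103 CPM (100.4 to 105) labelled fl/fl and 4.79 CPM (4.28 to 5.35) labelled +/fl, a ratio of 21.4. Klk1b26, known as a prorenin-converting enzyme, had 120.1 CPM (118 to 122) and 3.08 CPM (2.67 to 3.53), a ratio of 39.0. Fabp9, a lipid binding protein of the sperm perforatorium, had 203 CPM (199.9 to 206) and 7.28 CPM (6.64 to 7.95), a ratio of 27.9. With nothing added to the levels Klk1b11 had the largest of the 6 ratios, but its interval (32.8 to 51.6) overlaps that of Klk1b26 (33.9 to 45.0), and with 1 CPM added both Klk1b26 (log2 ratio 4.89) and Fabp9 (4.62) come before Klk1b11 (4.52). By UMI count, which for 3′ tags does not scale with transcript length, Klk1 was the leading kallikrein of both libraries, but it made up 29.4% of the 38266 kallikrein UMIs labelled fl/fl and 55.0% of the 2125 labelled +/fl.

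Summed over the 5 kallikreins, the level was 472 CPM (468 to 477) labelled fl/fl and 31.9 CPM (30.6 to 33.3) labelled +/fl, a ratio of 14.8 (14.2 to 15.5). On the log2 scale with 1 CPM added to both levels the ratio was 3.84 for the sum and 4.62 for Fabp9, against a median of 0.04 over all 18401 genes. Of those genes 10.3% were 2-fold or more higher labelled fl/fl and 2.42% were 2-fold or more lower. The same contrast chose the members, so nothing is read from their count of 6 of 6. A summed level does not tell fewer cells from less RNA per cell, which the counts per cell below describe in part.

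**Figure D1:**
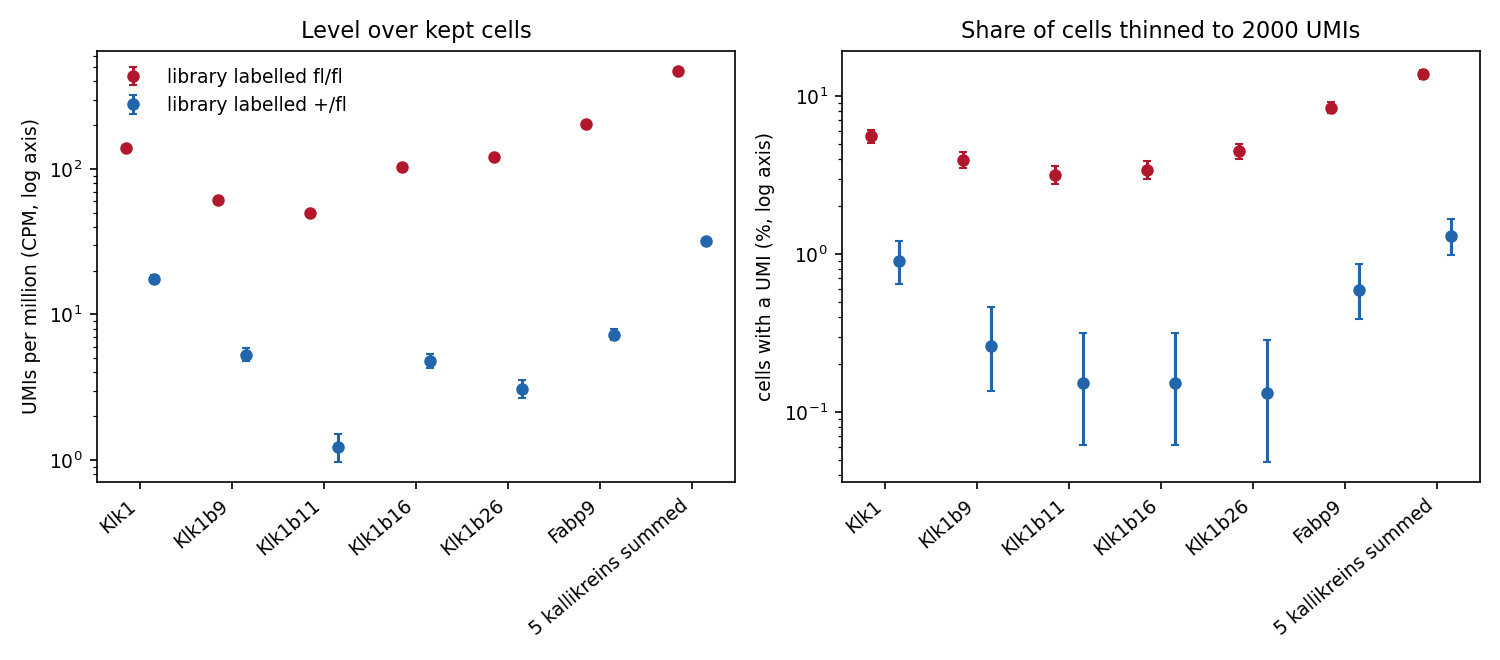
Level of each gene over kept cells (left, CPM on a log axis) and share of cells with at least 1 UMI after thinning each cell to 2000 UMIs (right, percent, log axis), for the library labelled fl/fl (red, left of each pair) and the library labelled +/fl (blue). Bars are 95% counting intervals, and every red point lies above its blue partner, by ratios of 7.90 for Klk1 to 40.9 for Klk1b11 in level.

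The libraries differed in how many cells held kallikrein UMIs. Before thinning the positive cells had a median of 2 such UMIs in each library, but 39.6% (labelled fl/fl) and 44.4% (labelled +/fl) held exactly 1. At unlike depths this median does not show that the RNA per positive cell was alike. To compare shares at equal depth, 2000 UMIs were drawn at random from every cell, and 793 and 324 shallower cells were left out. Any of the 5 kallikreins was then found in 941 of 6876 cells labelled fl/fl (13.7%, 12.9 to 14.5) and in 59 of 4567 cells labelled +/fl (1.29%, 0.985 to 1.66). Without thinning these shares were 24.1% and 3.31%. Fabp9 was found in 8.42% of thinned cells labelled fl/fl (7.77 to 9.10) and in 0.591% of those labelled +/fl (0.390 to 0.859). Klk1 led among the single kallikreins with 5.56% and 0.898%, and the other 4 lay between 3.17% and 4.45% labelled fl/fl and between 0.131% and 0.263% labelled +/fl.

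Non-epithelial cells give a floor for these shares. Myeloid and T-lineage cells are not a usual source of these kallikreins, yet 3.56% of thinned myeloid-like cells (8 of 225) and 3.23% of T-lineage-like cells (3 of 93) labelled fl/fl had a kallikrein UMI. Labelled +/fl, 1 of 294 myeloid-like cells (0.340%) and 0 of 70 T-lineage-like cells did, and a count of 0 allows up to 4.29% there. Unthinned, the myeloid-like shares were 8.72% and 1.67%, at medians of 6523.5 and 9702 UMIs per cell. Shares at or below these values are read as background. Whether free RNA gave these UMIs was not tested, and 1 myeloid-like cell labelled fl/fl held 10 of its class's 55 kallikrein UMIs.

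Most UMIs came from very few cells. The richest 1% of cells (77 cells) held 59.7% of the kallikrein UMIs labelled fl/fl, and the richest 1% (49 cells) held 91.5% of those labelled +/fl. An equal split of the kallikrein UMIs was reached with 49 cells in the library labelled fl/fl and with 8 cells in the library labelled +/fl. For single genes that number was 33 and 5 cells for Klk1, 42 and 2 for Klk1b9, 31 and 4 for Klk1b11, 15 and 3 for Klk1b16, 19 and 4 for Klk1b26, and 66 and 6 for Fabp9. Klk1b16 was the most concentrated in the library labelled fl/fl, where the richest 1% of cells held 85.8% of it, and Fabp9 the least, with 53.9%.

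Between 41.5% and 50.1% of the cells labelled fl/fl that held a given kallikrein held exactly 1 UMI of it. At the other end, 486 cells labelled fl/fl and 36 labelled +/fl held 10 or more kallikrein UMIs, and 77 and 4 cells held 100 or more. Fabp9 reached 10 UMIs in 305 and 16 cells. Without the richest 1% of cells in each library the log2 ratio of the summed kallikreins was 5.70, against 3.84 with them, and that of Fabp9 was 6.14, against 4.62. This 1% is 77 of 1846 kallikrein-positive cells labelled fl/fl but 49 of 162 labelled +/fl, so a larger ratio follows from the unequal shares of positive cells and nothing is read from it. For Klk1b9, Klk1b11, Klk1b16 and Klk1b26 those 49 cells are more than all positive cells labelled +/fl.

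The richest cells show what such a cell holds. A keratinocyte-like cell labelled fl/fl carried 1254 kallikrein UMIs out of 18112 (6.92% of its RNA), made up of 221 Klk1, 107 Klk1b9, 150 Klk1b11, 313 Klk1b16 and 463 Klk1b26, beside 12 Fabp9 and 1 Aire UMI. An Aire-stage cell of the same library held 738 Klk1b26 UMIs with 259 Klk1b16, 96 Klk1b9, 90 Klk1 and 43 Klk1b11. The richest Fabp9 cell held 473 Fabp9 UMIs and at most 2 of any kallikrein. Labelled +/fl, the richest cell was also in an Aire-stage cluster, with 316 kallikrein UMIs out of 13577, of which 184 were Klk1 and 68 Klk1b16. High levels thus occurred both as mixtures of all 5 genes and as 1 gene almost alone.

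**Figure D2:**
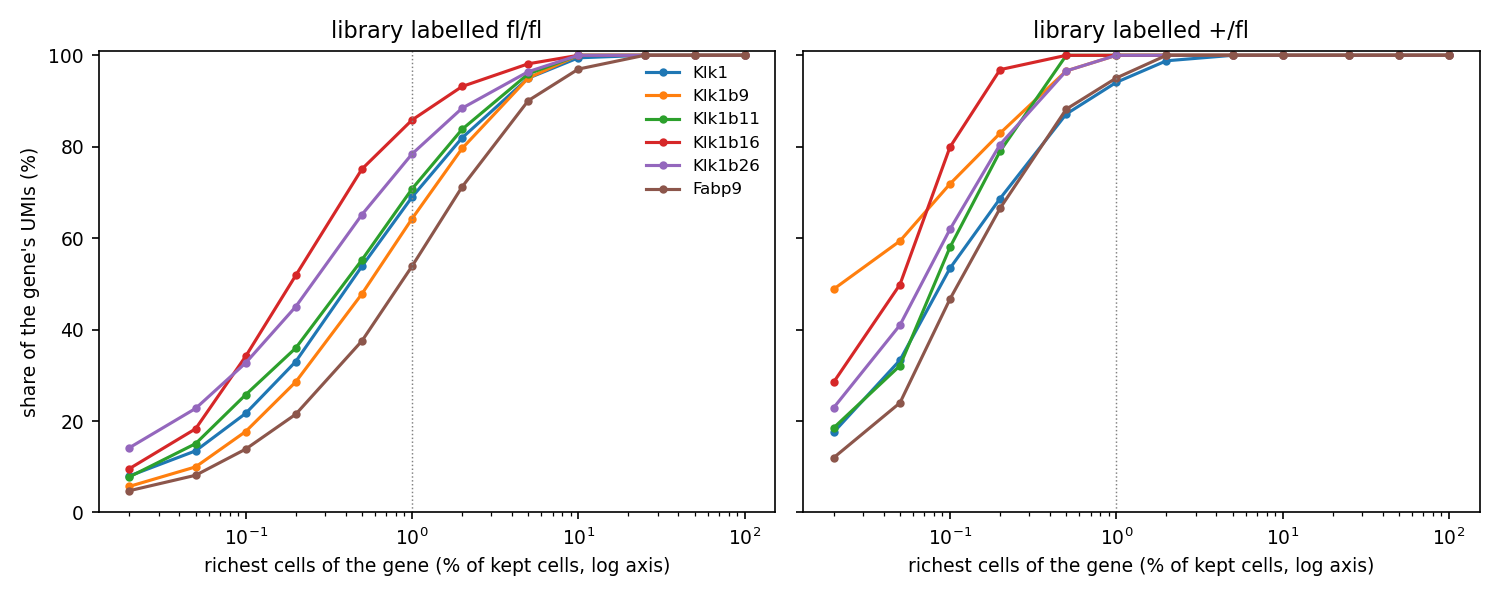
Share of each gene's UMIs (vertical axis, percent) held by the richest cells (horizontal axis, percent of kept cells, log axis), for the library labelled fl/fl (left) and the library labelled +/fl (right). Each gene is ranked by its own richest cells, and the dotted line marks the richest 1%, which held from 53.9% (Fabp9) to 85.8% (Klk1b16) of a gene's UMIs labelled fl/fl and at least 94.1% (Klk1) labelled +/fl.

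The kallikreins were detected together more often than their single rates give. Among the 941 thinned cells labelled fl/fl with a kallikrein, 300 (31.9%, 28.9 to 35.0) had 2 or more of the 5, where independent detection at the same rates gives 8.13%. Of these cells 188 had 2 kallikreins, 65 had 3, 35 had 4 and 12 had all 5. Labelled +/fl, 11 of 59 cells (18.6%, 9.69 to 30.9) had 2 or more, where independent detection gives 0.506%. Without thinning the shares were 41.2% (761 of 1846 cells) and 24.7% (40 of 162 cells), and 84 cells labelled fl/fl had all 5. The intervals of the thinned shares overlap, so how far co-detection among positive cells differs between the libraries could not be resolved at this depth.

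The pairs were not alike. Over all thinned cells labelled fl/fl the 3 neighbours were found together at the highest multiples of independence: Klk1b11 with Klk1b26 in 90 cells (9.28 times the expected number), Klk1b9 with Klk1b11 in 79 cells (9.16 times) and Klk1b9 with Klk1b26 in 106 cells (8.76 times). Klk1b16 with Klk1b26, the pair with the most similar transcripts, followed at 7.49 times in 78 cells. Pairs with Klk1 lay between 3.80 times (Klk1b11) and 5.77 times (Klk1b16, its nearest neighbour among the 5), and Klk1b9 with Klk1b16 at 5.73 times. Within Aire-stage cells, a class described below, these pairs lay close together. Klk1b16 with Klk1b26 had 5.42 times (36 cells) and Klk1b9 with Klk1b26 5.28 times (62 cells). Klk1b11 with Klk1b26 had 4.85 times (44 cells) and Klk1b9 with Klk1b11 4.84 times (46 cells). At these cell counts their order is not read. Outside Aire-stage cells the neighbouring pairs had 15.1, 14.8 and 12.2 times, Klk1b11 with Klk1b16 10.6 times and Klk1b16 with Klk1b26 9.12 times. Transcript identity was 91.9% for Klk1b16 and Klk1b26 and 82.8% for Klk1b9 and Klk1b26, and how far sequence likeness bears on co-detection was not tested.

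Across all 7669 cells labelled fl/fl, Pearson correlations of log counts had the same 3 neighbouring pairs at the top, with 0.59 for Klk1b11 and Klk1b26, 0.54 for Klk1b9 and Klk1b11 and 0.51 for Klk1b9 and Klk1b26. Across the 4891 cells labelled +/fl these were 0.50, 0.43 and 0.46, while Klk1 with Klk1b16 reached 0.45 there and 0.35 labelled fl/fl. The points are cells of 1 library each, share depth and clusters, and are not replicates. Labelled +/fl, Klk1 with Klk1b16 was also the most frequent pair after thinning, with 6 cells, and no other kallikrein pair was seen in more than 3.

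Fabp9 was found with the kallikreins too, at lower multiples. In thinned cells labelled fl/fl it met each kallikrein between 1.24 times (Klk1) and 2.59 times (Klk1b16) the expected number, below every pair of kallikreins. It was found in 15.3% (13.1 to 17.8) of cells with a kallikrein and in 7.33% (6.68 to 8.02) of cells without one. Within Aire-stage cells labelled fl/fl these shares were 15.8% (12.4 to 19.6) and 13.0% (11.4 to 14.7), with overlapping intervals, and outside them 14.9% and 5.18%. Outside Aire-stage cells Fabp9 met the kallikreins between 1.61 times (Klk1) and 4.06 times (Klk1b11) the expected number, where pairs of kallikreins lay between 4.75 and 15.1 times. Labelled +/fl only 3 cells had both, or 5.08% (1.06 to 14.1) of kallikrein-positive cells, against 0.532% of the others.

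**Figure D3:**
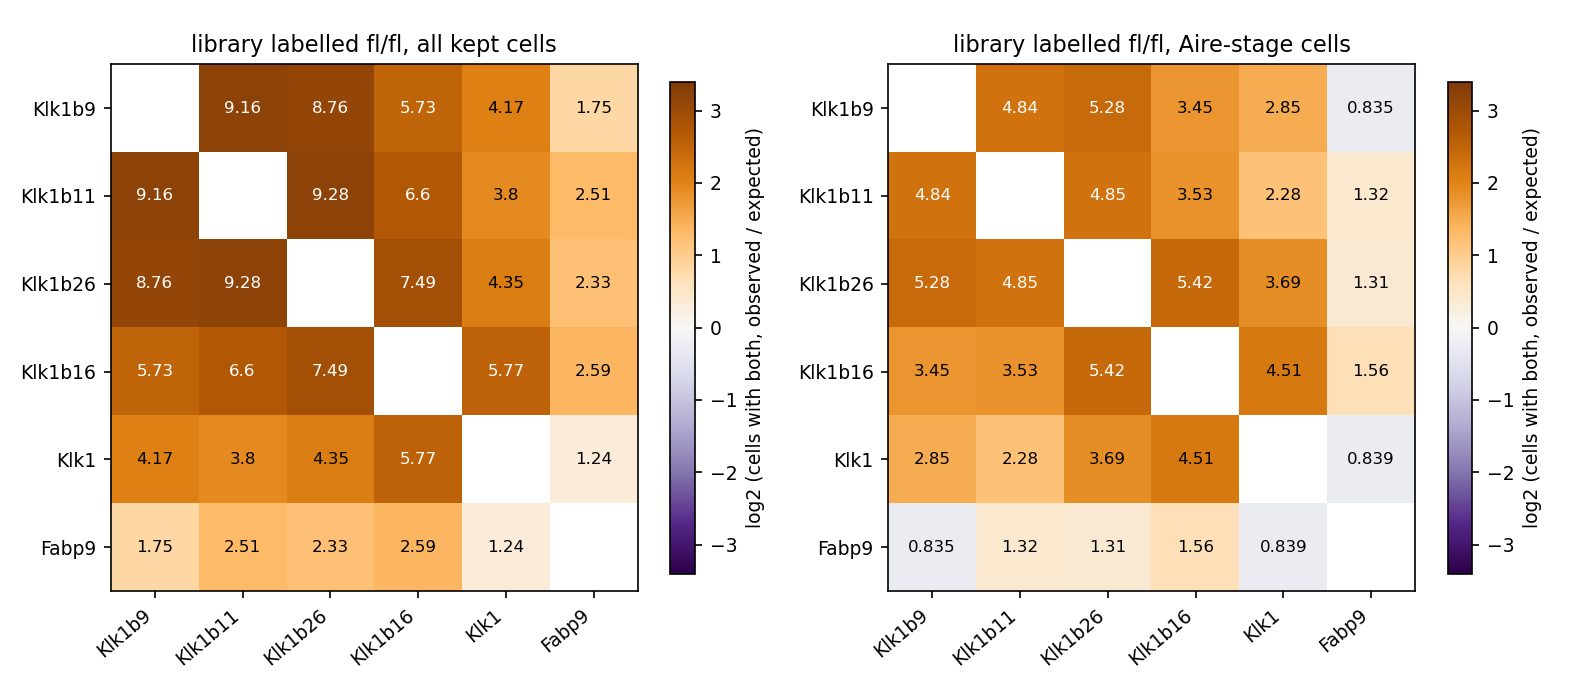
Observed over expected number of thinned cells with both genes of a pair (printed in each square, coloured as its log2) for the 6 genes on both axes, among all cells (left) and among Aire-stage cells (right) labelled fl/fl. Pairs of kallikreins reach 9.28 over all cells and 5.42 within Aire-stage cells, while pairs with Fabp9 stay at or below 2.59 and 1.56.

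In cells with 10 or more kallikrein UMIs the leading kallikrein made up a median of 72.7% of them labelled fl/fl and 89.4% labelled +/fl. Klk1 led in 179 of the 486 cells labelled fl/fl, Klk1b26 in 102, Klk1b9 in 93, Klk1b16 in 69 and Klk1b11 in 43. Labelled +/fl, Klk1 led in 21 of 36 cells. The median share of the leading gene was 97.6% in neuroendocrine-like and 97.7% in secretory-like cells labelled fl/fl, but 66.7% in Aire-stage and 61.1% in keratinocyte-like cells. So the mixed cells lay mostly in the last 2 kinds.

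To place these cells, each library was clustered separately with all Klk genes and Fabp9 left out, and clusters were named by resemblance to fixed marker lists. Joint clustering gave clusters made almost wholly of 1 library, so classes of the same name in the 2 libraries are different clusters. The Aire-stage cells labelled fl/fl were 2353 cells in 3 clusters (median 11144 UMIs per cell), and those labelled +/fl 594 cells in 1 cluster (median 25621.5 UMIs). Immune genes (Il13, Il27, Cd86, Ccl17, Ccl22) lead the first of the 3, beside Fabp9 and Klk1b26 themselves, while S100a8, Iglc1 and Cxcl13 are among the leaders of the cluster labelled +/fl.

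Neuroendocrine-like cells labelled fl/fl (247 cells, with Scg2, Stxbp5l and Car8 among their leading genes) had the highest kallikrein level, 2832 CPM (2761 to 2904). Klk1 gave 66.0% of it at 1870 CPM and Klk1b16 gave 22.2% at 628 CPM, while Klk1b9 had 33.3 CPM. A single cell held 345 of the 1359 Klk1b16 UMIs, and without it Klk1b16 had 472 CPM. Klk1 was found in 48.5% of thinned neuroendocrine-like cells and Klk1b16 in 10.4%. After thinning 53.5% of these cells (129 of 241, 47.0 to 60.0) had a kallikrein UMI, the highest share of any class. Fabp9 had 32.8 CPM there and was found in 2.90% of thinned cells, close to the 2.67% of myeloid-like cells, so its signal in neuroendocrine-like cells lies at the background. There were 0.0116 Fabp9 UMIs per kallikrein UMI in these cells, against 0.430 over the whole library.

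Keratinocyte-like cells labelled fl/fl (444 cells, led by Calm4, Krtdap and Cnfn) held all 6 genes. Klk1b26 had 546 CPM, Klk1b16 446, Klk1 282, Klk1b11 182 and Klk1b9 158 CPM, for a sum of 1614 CPM, and Fabp9 had 836 CPM, its highest level in any class. A kallikrein was found in 29.2% of thinned cells and Fabp9 in 30.2%. Secretory-like cells (345 cells) leaned on Klk1 (289 CPM) and Klk1b16 (246 CPM), with 659 CPM for the sum, but 1 cell held 426 of the 954 Klk1b16 UMIs, and without it Klk1b16 had 137 CPM. Klk1b26 and Klk1b16 thus led in keratinocyte-like cells, and Klk1 and Klk1b16 in the other 2 classes.

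Fabp9 was also high in enterocyte-hepatocyte-like cells labelled fl/fl (96 cells, 557 CPM, 26.7% of thinned cells) and in microfold-like cells (186 cells, 353 CPM, 15.7%). The kallikrein sums there were 208 and 148 CPM, but 20.5 and 77.7 CPM without the richest cell of each class. In the enterocyte-hepatocyte-like class that cell held 206 of 228 kallikrein UMIs. Tuft-like cells (862 cells) had 113 CPM and 7.28% of thinned cells positive (5.57 to 9.31). The myeloid-like share was 3.56% (1.55 to 6.89), and the intervals overlap. Immature mTEC-like cells (1399 cells, 2.51%) and cycling cells (583 cells, 4.20%) had shares at or near the background. An unnamed cluster of 473 shallow cells (median 3638 UMIs), with Myh4, Bpifa1 and Klk1b26 among its leading genes, had 722 CPM.

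Aire-stage cells were the most numerous class and contributed most of the UMIs of any class. They held 38.0% of the kallikrein UMIs and 48.5% of the Fabp9 UMIs labelled fl/fl, at 473 CPM (465 to 481) and 260 CPM (254 to 265). Of the 486 kallikrein-rich cells, 225 (46.3%) were Aire-stage, 89 (18.3%) keratinocyte-like and 88 (18.1%) neuroendocrine-like, which is 9.56%, 20.05% and 35.6% of those classes. The 3 Aire-stage clusters differed, with 835 CPM of kallikreins and 628 CPM of Fabp9 in the cluster led by Il13 and Fabp9, against 300 and 365 CPM of kallikreins and 93.6 and 93.3 CPM of Fabp9 in the other 2. Kallikreins and Fabp9 were thus both highest in the same Aire-stage cluster. The Aire-stage share rests on the clustering: it was 20.7% with a stricter cell filter, 22.3% with doublets kept, 16.8% and 4.62% at clustering resolutions 0.5 and 2, and 10.3% when both libraries were clustered together.

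The library labelled +/fl held its kallikreins in 3 places. The Aire-stage cluster had 71.8 CPM (67.7 to 76.1) and 53.5% of the library's kallikrein UMIs. A cluster with muscle markers (233 cells, led by Myl1, Ckm, Car8, Klk1 and Chga) had 157 CPM (146 to 169), of which Klk1 gave 82.0% and 1 cell gave 205 UMIs of 712, and 6.73% of its thinned cells were positive (15 of 223, 3.81 to 10.9). The microfold-like cluster (324 cells, median 2536 UMIs) had 85.6 CPM, but 25.9 CPM without its richest cell, which held 91 of its 92 Klk1b16 UMIs. Tuft-like cells (1830 cells) had 5.48 CPM, and keratinocyte-like cells (111 cells) 1.46 CPM, from 3 UMIs. In those keratinocyte-like cells Fabp9 had 29.3 CPM, with 58 of its 60 UMIs in 1 cell.

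No neuroendocrine-like class was named in the library labelled +/fl at the chosen resolution. At resolution 2 a cluster of 58 cells with 7 of 8 neuroendocrine markers had 885 CPM of kallikreins, of which Klk1 gave 793 CPM. At that resolution the neuroendocrine-like cells labelled fl/fl (233 cells) had 3014 CPM, with Klk1 at 1963 CPM. A neuroendocrine-like cluster rich in Klk1 was thus found in both libraries at that setting. The clusters labelled +/fl that met the muscle markers at that resolution, of 146 and 165 cells, had 33.8 and 14.3 CPM.

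**Figure D4:**
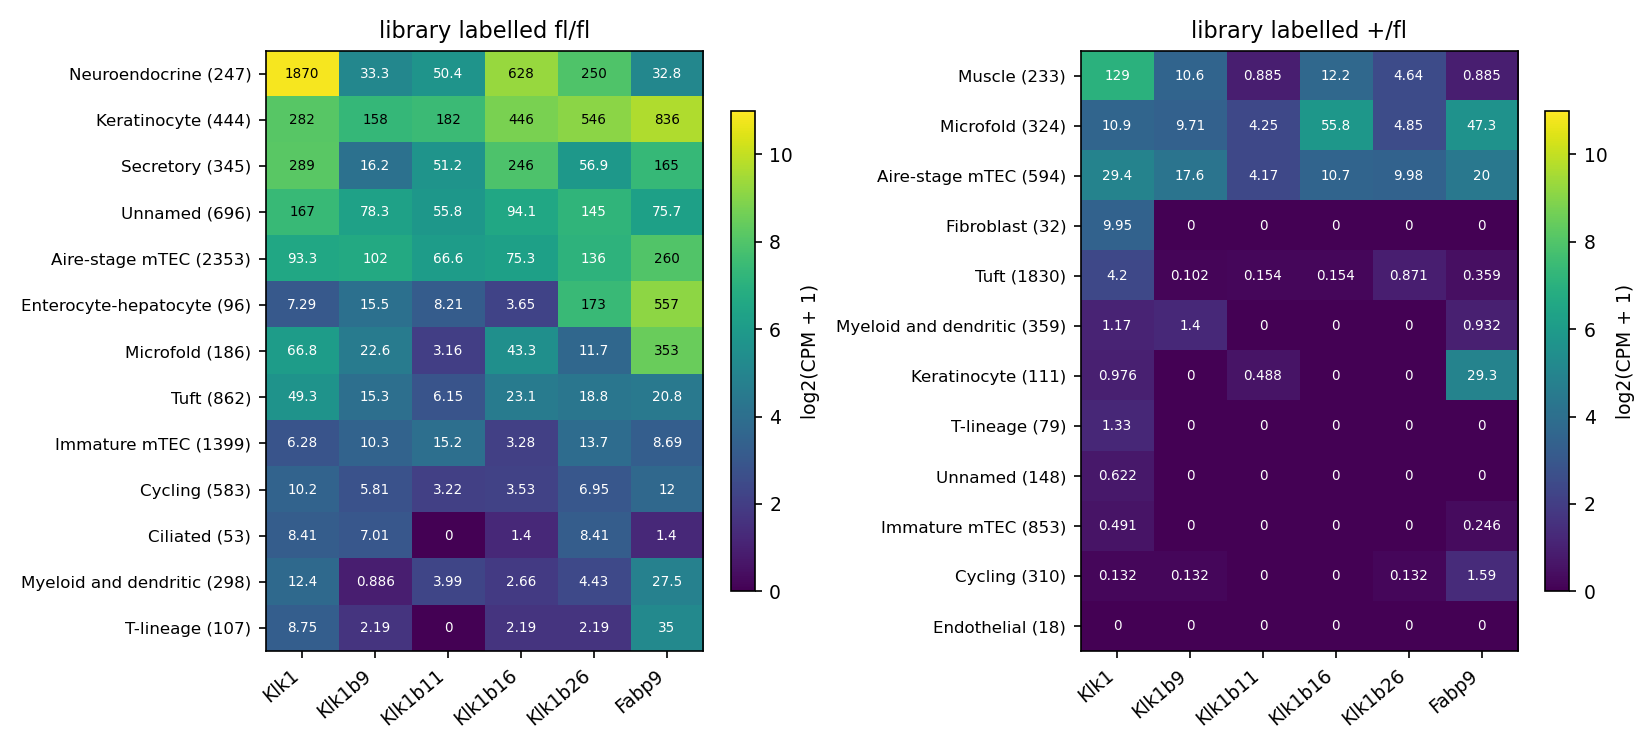
Level of each gene (CPM, printed in each square and coloured as log2 of CPM + 1) in each class of cells, for the library labelled fl/fl (left) and the library labelled +/fl (right), with the number of cells in brackets and classes ordered by summed kallikrein level. Klk1 peaks at 1870 CPM in neuroendocrine-like cells and Fabp9 at 836 CPM in keratinocyte-like cells labelled fl/fl, and labelled +/fl the highest Klk1 level is 129 CPM in the cluster with muscle markers.

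Within Aire-stage cells, a class named in both libraries, the 6 genes also differed. Klk1 had 93.3 CPM labelled fl/fl and 29.4 CPM labelled +/fl (ratio 3.18), and Klk1b9 102 and 17.6 CPM (5.76). Klk1b16 had 75.3 and 10.7 CPM (7.05), Klk1b26 136 and 9.98 CPM (13.7) and Klk1b11 66.6 and 4.17 CPM (16.0). Fabp9 had 260 and 20.03 CPM (13.0). A single cell labelled +/fl held 172 of its class's 279 Klk1b9 UMIs. Without the richest cell of each library the ratios were 4.65 for Klk1, 14.3 for Klk1b9, 9.90 for Klk1b16, 16.0 for Klk1b26, 19.0 for Klk1b11 and 14.9 for Fabp9. Klk1 had the smallest ratio with and without these cells, while the order of Klk1b9 among the others rests on that 1 cell.

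The summed kallikreins in Aire-stage cells had 473 CPM labelled fl/fl and 71.8 CPM labelled +/fl, a ratio of 6.59 (6.20 to 7.003) and a log2 ratio of 2.70. Among 16293 genes tested in these cells 16.1% were 2-fold or more higher labelled fl/fl and 3.23% lower, and the median log2 ratio was 0.08. Aire itself had 533 and 388 CPM and Fezf2, another regulator of antigen expression, 495 and 585 CPM. The log2 ratio of the sum was 2.24 with a stricter cell filter, 2.23 as a mean over cells and 4.77 at resolution 2, where the Aire-stage cells labelled +/fl were 259 cells with 7.57 CPM. Its size thus depends on where the class is drawn, while its sign stayed positive wherever a value could be computed. Of other epithelial classes named in both libraries, keratinocyte-like cells had 1614 CPM labelled fl/fl and 1.46 CPM labelled +/fl, tuft-like cells 113 and 5.48 CPM, and microfold-like cells 148 and 85.6 CPM (77.7 and 25.9 CPM without the richest cell of each).

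Aire and the kallikreins did not peak in the same class. Labelled fl/fl, Aire was highest in cycling cells, at 618 CPM and in 62.8% of thinned cells, followed by Aire-stage cells at 533 CPM and 55.9%, while the kallikreins had 29.7 CPM in cycling cells. In the same library an Aire UMI was found in 34.3% (31.3 to 37.5) of thinned cells with a kallikrein and in 30.6% (29.5 to 31.8) of cells without one. Labelled +/fl these shares were 27.1% (16.4 to 40.3) and 16.3% (15.3 to 17.4). Within Aire-stage cells they were 52.7% and 56.7% labelled fl/fl, and labelled +/fl 14 of 28 positive cells held Aire, against 49.8% of the others. So kallikrein-positive cells held Aire at close to the rate of their surroundings. The higher share over all cells was not seen within the class. Aire has a background too. Thinned myeloid-like and T-lineage-like cells held an Aire UMI in 22.2% and 18.3% of cases labelled fl/fl, and in 15.3% and 5.71% labelled +/fl. Outside Aire-stage cells labelled fl/fl the shares were 19.2% with and 20.7% without a kallikrein. Those cells pool classes with Aire in 9.69% (immature mTEC-like) to 62.8% (cycling) of thinned cells. How much of the Aire signal there is background was therefore not tested.

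The genes differed in this. Klk1b9 was the kallikrein most raised in cells with Aire, at 68.7 CPM in thinned cells labelled fl/fl with an Aire UMI and 34.7 CPM in cells without (log2 ratio 0.96). Klk1 went the other way, with 74.3 and 168 CPM (-1.17), followed by Klk1b16 with 71.0 and 104 CPM (-0.55) and Klk1b26 with 89.4 and 107 CPM (-0.25). Klk1b11 had 42.5 and 36.0 CPM (0.23), and Fabp9 185 and 191 CPM (-0.04). In this split 5.76% of 12740 genes were 2-fold or more higher and 3.59% lower in cells with Aire, and Klk1 alone of the 6 passed that mark. Within Aire-stage cells Aire was found in 53.8% (44.9 to 62.5) of Klk1-positive and 56.0% (53.8 to 58.3) of Klk1-negative cells. Within neuroendocrine-like cells these shares were 12.8% and 12.1%. By detection the Klk1 difference was thus not seen inside either class, but Klk1 levels by Aire inside them are not given here. The neuroendocrine-like class, with Aire at 76.3 CPM, held 36.0% of the library's Klk1 UMIs.

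Among thinned cells labelled fl/fl with 0, 1, 2 and 3 or more Aire UMIs the summed kallikreins had 450, 417, 263 and 219 CPM, while the share of positive cells was 13.1%, 14.4%, 16.6% and 15.6%. Cells with more Aire were thus about as often positive but held fewer UMIs. Klk1 had 168, 89.3, 54.1 and 50.7 CPM over the same steps, whereas Klk1b9 had 34.7, 65.2, 71.1 and 76.7 CPM. Within Aire-stage cells the summed kallikreins had 593, 483, 322 and 274 CPM and Fabp9 373, 314, 177 and 142 CPM, so their decline was seen inside the class, while Klk1b9 had 85.9, 92.8, 99.7 and 106 CPM with overlapping intervals. Fabp9-positive Aire-stage cells had Aire in 47.7% (41.7 to 53.7) of cases, against 57.2% (54.9 to 59.5) for Fabp9-negative ones.

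Labelled +/fl, the Aire split rests on few UMIs. Klk1 had 7.31 CPM (11 UMIs) in cells with Aire and 18.2 CPM (139 UMIs) in cells without, as in the other library. Klk1b9 had 18.6 CPM (28 UMIs) and 1.18 CPM (9 UMIs), again higher with Aire, but its richest cell alone held 172 of the library's 352 Klk1b9 UMIs before thinning and 19 Aire UMIs. Fabp9 had 31.9 CPM (48 UMIs) and 2.49 CPM (19 UMIs). Of 10998 genes, 4.18% were 2-fold or more higher and 3.63% lower in cells with Aire.

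**Figure D5:**
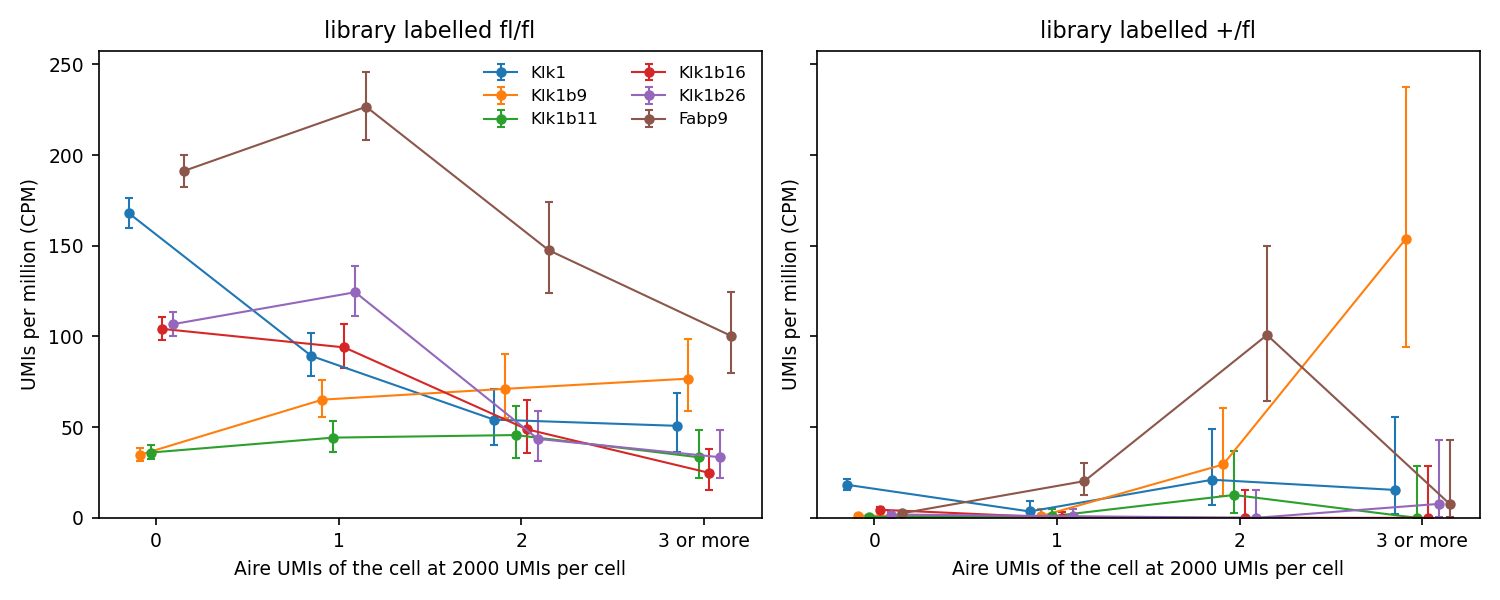
Level of each gene (CPM, after thinning each cell to 2000 UMIs) in cells with 0, 1, 2 and 3 or more Aire UMIs, for the library labelled fl/fl (left) and the library labelled +/fl (right), with 95% counting intervals. Klk1 runs from 168 down to 50.7 CPM and Klk1b9 from 34.7 up to 76.7 CPM labelled fl/fl, and labelled +/fl the high points rest on 3 or fewer positive cells (Klk1b9 and Fabp9).

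The other 9 glandular kallikreins of the cluster had ratios in the same direction as the 5. All 9 were 2-fold or more higher labelled fl/fl (median log2 ratio 2.23), where 10.3% of all genes passed that mark, among them Klk1b27 with 8.96 CPM labelled fl/fl and 0.331 CPM labelled +/fl, Klk1b1 with 12.7 and 0.691 CPM, Klk1b8 with 19.5 and 3.26 CPM and Klk1b5, which shares 90-base windows with Klk1, with 5.68 and 1.35 CPM. Of 11 measured kallikrein-related peptidases, proteases of skin and gland encoded outside the glandular cluster, 10 were higher (median 1.82). Klk7, which sheds corneocytes from skin, had 30.01 and 4.25 CPM, and Klk6 18.2 and 1.02 CPM, while Klk11 had 1.14 and 1.16 CPM. Higher kallikrein counts were thus not limited to the 5, and within Aire-stage cells 8 of 9 and 8 of 10 were higher, where 16.1% of all genes were. The 9 are close copies, with 6.33% (Klk1b8) to 46.2% (Klk1b24) of their 90-base windows within 3 mismatches of another glandular kallikrein. Whether some of their UMIs came from transcripts of the 5 was not tested.

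Substrates and receptors were mixed. The lists that follow are read against the same 10.3% of all genes 2-fold or more higher and 2.42% lower, with a median log2 ratio of 0.04. Of 8 kinin pathway genes 2 were 2-fold or more higher, the kininogens Kng1 (8.29 CPM labelled fl/fl and 0.451 CPM labelled +/fl) and Kng2 (3.81 and 0.180 CPM), and 1 was lower, the angiotensinogen gene Agt (25.8 and 91.2 CPM). The kinin receptor gene Bdkrb2 had 10.4 and 9.33 CPM. Of the growth factor genes, 0 of 2 measured passed the mark.

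Of 6 measured inhibitors of serine proteases 5 were higher (median 1.61), and in Aire-stage cells 4 of 6, beside 3 of 8 kinin pathway genes there. The trypsin inhibitor gene Spink1 had 342 CPM labelled fl/fl and 60.0 CPM labelled +/fl, and Spink5, whose product inhibits kallikreins in skin and which is also a keratinocyte marker here, 315 and 114 CPM. Of 12 measured salivary genes 7 were higher (median 1.24), with Dcpp1 at 41.6 and 1.11 CPM and Car6 at 14.8 and 1.46 CPM, while Lpo had 113 and 98.5 CPM. Other gland genes thus went with the kallikreins in part.

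Other fatty acid binding protein genes were higher in 6 of 8 cases (median 2.08). Fabp4, the closest to Fabp9 in transcript sequence among the 4 compared, had 2060 CPM labelled fl/fl and 449 CPM labelled +/fl, Fabp5 4572 and 1770 CPM and the ileal Fabp6 147 and 22.8 CPM. Spermatids are the usual site of Fabp9, and of 6 measured spermatid genes 3 were higher (median 0.98), with Tnp2 at 12.3 and 3.14 CPM. Fabp9 was therefore not alone among lipid binding protein genes.

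The sex-linked transcripts given above stand beside these results. The part of sex in the kallikrein levels was not tested and cannot be told apart from genotype.

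Markers of other cells differed between kallikrein-rich cells and the rest. The 486 cells labelled fl/fl with 10 or more kallikrein UMIs had 688 CPM summed over 8 neuroendocrine markers, against 377 CPM in the other cells, 1313 against 1186 CPM over 8 Aire-stage markers and 1276 against 4013 CPM over 8 immature mTEC markers. The 11 myeloid and dendritic markers summed to 1570 CPM in them and 891 CPM in the others, with 6 of the 11 found in 10% or more of the rich cells and none at 0, and the 12 tuft markers to 353 and 935 CPM. Of the 21 marker lists, the 4 ionocyte markers had the largest rise, at 62.5 against 26.5 CPM, with 1 of them in 10% or more of the rich cells. The 6 cortical epithelium markers had 227 against 640 CPM and the 9 keratinocyte markers 766 against 953 CPM. Kallikrein-rich cells were thus poorer in immature, cortical and tuft transcripts. The part of myeloid transcripts in the result was not tested.

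Car8, Rptn and Stxbp5l were among the genes most like the kallikreins. Across the 7669 cells labelled fl/fl, the 10 genes with the highest Pearson correlation with the summed kallikreins, out of 15248 and leaving out the Klk genes and Fabp9, were Resp18 (0.31), Car8 (0.27), Iglc3 (0.27), Rptn (0.26), 5330417C22Rik (0.25), Gm44756 (0.23), Stxbp5l (0.23), Ahcyl2 (0.22), Cacna2d1 (0.22) and Cd164 (0.22). Gm44756 overlaps Klk1b9, Klk1b8 and Klk1b1 on the opposite strand. Across the 4891 cells labelled +/fl, which the ranking did not use, Car8 (0.24) had rank 1 and Rptn (0.21) rank 2 of 14774 genes, Stxbp5l (0.17) rank 7 and Cacna2d1 (0.17) rank 8. The others came lower, with 5330417C22Rik at rank 15, Resp18 at 30, Ahcyl2 at 122, Cd164 at 191 and Iglc3 at 236, while Gm44756 was in too few cells to be ranked. Fabp9 reached 0.15 labelled fl/fl and 0.08 labelled +/fl, and Aire 0.03 and 0.05. The correlations are low and describe cells of 1 library each, which share depth and clusters.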

How the data were processed

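Per the labels, EPCAM+Ly51- mTECs were captured with a 10x Genomics 3′ kit. Per the submitters' processing notes, Cell Ranger and Seurat were used, the matrix header gives software version 3.1.0, while the sources used here name neither the build nor the counting settings. The authors deposited 2 filtered matrices of whole UMI counts per gene and barcode, 1 library per genotype. The members and all gene lists were chosen with earlier results of these data known.

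Cells were kept from 500 genes and 1000 UMIs upwards if mitochondrial UMIs made up no more than 15% (74.0% labelled fl/fl and 69.8% labelled +/fl). Automatic Scrublet calls marked 0 and 1 cells, so the highest doublet scores were removed at 0.8% per 1000 cells (539 and 208 cells). Each library was clustered (scanpy 1.11.5, 2000 variable genes, 30 components, 15 neighbours, Leiden resolution 1) without Klk genes and Fabp9. A class took its name where at least 3 markers and 40% of a list met 2-fold and 10% of cells. This scoring and the separate clustering were chosen after the clusters had been seen. Levels are CPM (UMIs scaled to a total of 1000000) over the cells named, and ratios add 1 CPM on the log2 scale. Called means 2-fold or more among genes with at least 50 UMIs. A count of 0 allows up to 3 counts. The named genes are the 6 members, members of the lists and the 10 genes most like the summed kallikreins. Thinning and ratios were tested on simulated data. TMM factors came from edgeR 4.0.16, with no model fitted. A result on receptor genes is not reported here.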

Additional observations from a re-analysis of the deposited data

Results flagged for a closer look

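Barcodes outside the analysed cells also held these transcripts. In the 2887 barcodes labelled fl/fl that failed the cell filter the summed kallikreins had 109 CPM and Fabp9 95.6 CPM, and in the 2205 such barcodes labelled +/fl 13.7 and 1.86 CPM. In the 539 barcodes labelled fl/fl removed as doublets the sums were 275 and 81.9 CPM, and in the 208 labelled +/fl 2.67 and 1.10 CPM.

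The split by Aire had opposite signs in the libraries. The log2 ratio of cells with over cells without an Aire UMI was -0.044 labelled fl/fl and 3.24 labelled +/fl for Fabp9, and -0.38 labelled fl/fl and 0.18 labelled +/fl for the summed kallikreins. The difference was not tested, since each genotype has 1 library, and the values labelled +/fl rest on 48 and 19 Fabp9 UMIs and 45 and 200 kallikrein UMIs.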

How the results depend on the processing

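No paired analysis was possible because each genotype has 1 library, and for the same reason no replicate could be left out. No ratio turned its direction under any alternative. The summed kallikrein log2 ratio was 3.74 with TMM factors, 3.70 as a mean over cells, 4.02 without the richest cell of each library (an alternative chosen after seeing the data) and 5.70 without the richest 1% of cells, which is a larger part of the positive cells labelled +/fl. For Fabp9 it was 4.41 as a mean over cells, 4.78 with 0.1 CPM added and 6.14 without the richest 1%. In Aire-stage cells the summed ratio was 2.24 with the stricter filter (1000 genes, 2000 UMIs, 10% mitochondrial), 2.58 with TMM factors, 2.23 as a mean over cells, 3.04 without the richest cell of each library, 3.401 without the richest 1% and 4.77 at resolution 2. Over all genes TMM factors moved the median log2 ratio to -0.05.

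The Aire-stage share of kallikrein UMIs was 20.7% labelled fl/fl with the stricter filter, 22.3% with doublets kept, 16.8% at resolution 0.5, 4.62% labelled fl/fl and 2.40% labelled +/fl at resolution 2, and 10.3% labelled fl/fl and 0% labelled +/fl with both libraries clustered together, an alternative chosen after seeing the data. No Aire-stage class was named labelled +/fl with doublets kept, at resolution 0.5 or with Klk genes and Fabp9 among the variable genes, and joint clustering left 13 Aire-stage cells with 0 kallikrein UMIs, so these gave no ratio. Class results on every deposited barcode were not run.

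Shares moved with depth. Thinned to 1000 UMIs, kallikrein-positive shares were 9.58% labelled fl/fl and 0.961% labelled +/fl, Aire among them 19.5% and 14.9%, co-detection labelled fl/fl 27.2% and Fabp9 12.4%. Thinned to 4000 UMIs, they were 18.1% and 1.80%, with co-detection 38.5%, Fabp9 18.7% and Aire 50.4% labelled fl/fl. Unthinned, they were 24.1% and 3.31%, with co-detection 41.2% and Fabp9 27.2% labelled fl/fl, and Aire 68.9% labelled fl/fl and 62.3% labelled +/fl. With 2 UMIs required, they were 7.62% and 0.613%, with co-detection 25.6% and Fabp9 10.1% labelled fl/fl. Single-gene log2 ratios ranged from 2.81 to 4.45 for Klk1, 2.93 to 4.02 for Klk1b9, 4.22 to 5.24 for Klk1b11, 4.07 to 4.47 for Klk1b16 and 4.78 to 5.24 for Klk1b26. Limits are the single library per genotype, the background in non-epithelial cells and the few cells that hold most UMIs.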
